A study of Mus musculus with 18 samples.

Results

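Protein folding in the endoplasmic reticulum (ER) was followed, by 10 of its genes, through 6 populations of mouse T cells. They are Xbp1, Hspa5, Hsp90b1, Dnajb9, Sdf2l1, Pdia4, Pdia6, Calr, Canx and Herpud1, chosen by their symbols, and all 10 were present among the 15402 genes of the expression table. All 10 also passed the filter on low values, a mean log2 value of at least 3, which 13190 genes passed. The cells came from female Foxp3-Tocky mice (labelled C57/BL6 Foxp3Timer Foxp3-IRES-GFP), which carry a Fluorescent Timer reporter of Foxp3, the master transcription factor of regulatory T cells (Treg), and a GFP reporter of the same gene. The labels give no age. All mice had been sensitised with 3% oxazolone, a contact hapten, on the abdominal skin, and draining lymph nodes were taken 5 days later, so no population came from an untreated animal.

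Timer protein is blue when it is made and matures to red, so that the balance of the colours reports how recently Foxp3 was transcribed. The sort gave 6 populations, with 3 libraries each and 18 in all. Tnaive (CD44lo) and Teff (CD44hi) were GFP-negative and Timer-negative CD4+ cells. The other 4 were GFP-positive Foxp3 expressors. Pers1 and Pers2, together called persistent here, had both colours, the sign of ongoing Foxp3 transcription. PAt had little blue signal, and Arrested had none. The sources speak both of pooled mice and of cells sorted from each mouse. That libraries with the same replicate number share their mice was taken from the numbering and is not stated. The gates follow reporter fluorescence, and the sample descriptions name the same 4 gates differently, as de novo, maturing, mature and decaying expressors.

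The ER folds secreted and membrane proteins. BiP, the product of Hspa5, is the Hsp70 of this compartment. It also holds the stress sensors Ire1, Perk and Atf6 inactive, and its release from them starts the unfolded protein response (UPR). Ire1 splices the Xbp1 transcript into the form that encodes an active transcription factor. Atf6 is cleaved into another, and both drive chaperone genes, whereas Perk slows translation and favours Atf4 and Ddit3 (CHOP). In lymphocytes Xbp1 is best known for the secretory expansion of plasma cells. The table has 1 value per gene and cannot separate spliced from unspliced Xbp1.

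The classical promoter sequence of chaperone genes is the ER stress response element (ERSE), spelled as CCAAT, 9 free bases and CCACG, and a shorter relative is ERSE-II, spelled as ATTGG, 1 free base and CCACG. Both were searched on both strands of RefSeq promoters (GRCm38.p6, 250 bases before to 50 after the start), which held all 10 genes. An exact ERSE was found in 5 of the 10, against 37 of 27025 promoters (0.137%), and an ERSE-II in Herpud1, against 12 of 27025 (0.0444%). As the ERSE is already known from chaperone genes, these shares only describe the windows, and enrichment was not tested. The sequences are shown for the genes with an exact match, which the 10 genes do not all have. Capitals mark the element, which lies on the opposite strand in Calr and in the second site of Hsp90b1.
Hspa5: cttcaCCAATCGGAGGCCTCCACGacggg
Hsp90b1: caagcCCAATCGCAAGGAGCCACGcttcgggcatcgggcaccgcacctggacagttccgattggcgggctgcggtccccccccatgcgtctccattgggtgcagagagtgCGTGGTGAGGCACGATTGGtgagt
Pdia6: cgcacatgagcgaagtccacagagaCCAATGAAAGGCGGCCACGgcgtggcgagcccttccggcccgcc
Calr: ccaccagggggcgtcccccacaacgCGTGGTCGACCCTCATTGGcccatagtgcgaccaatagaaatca
Canx: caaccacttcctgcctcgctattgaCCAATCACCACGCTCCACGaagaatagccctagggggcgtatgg
Herpud1: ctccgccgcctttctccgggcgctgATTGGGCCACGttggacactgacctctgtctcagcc

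Each sequence is written 5′ to 3′ along its gene. The Hspa5 stretch is chr2:34772020-34772048 on the plus strand, 70 to 42 bases before the RefSeq start. GENCODE (vM21) begins this gene further upstream, and the stretch lies within it but in no annotated exon, whereas the other 5 stretches lie upstream of their annotated genes. The pair of Hsp90b1 sites lies at chr10:86705528-86705661 (minus strand), between 217 and 84 bases before the start. The Pdia6 stretch is chr12:17266466-17266534 (plus), that of Calr chr8:84847050-84847118 (minus), that of Canx chr11:50325775-50325843 (minus) and that of Herpud1 chr8:94386352-94386412 (plus). In Xbp1, Dnajb9, Sdf2l1 and Pdia4 neither spelling was in the window, which says only that these letters are not there. The core CCACG, which is the end of both spellings, was in 9 of the 10 windows, but also in 35.5% of all promoters and 51% of those of tested genes.

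In the cells with persistent Foxp3 transcription 8 of the 10 genes were higher than in PAt and Arrested cells, and none was lower. Sdf2l1 differed most, by 2.70-fold, followed by Hsp90b1 and Pdia6 (both 1.74-fold), Calr (1.63-fold), Canx (1.50-fold), Pdia4 (1.41-fold), Xbp1 (1.31-fold) and Hspa5 (1.20-fold). Herpud1 and Dnajb9 did not pass the test. Of all 13190 genes tested, 35.9% were higher and 35.1% lower at an adjusted p under 0.05, and the count of 8 is to be read against these shares. In limma, 8 of the 10 had an unadjusted p under 0.05, as had 9620 of all 13190 genes, so that this count is near the background. Under the study's stricter rule, which also asks for a log2 fold change over 1, 1 of the 10 was called (Sdf2l1), against 4.74% of all genes. The median log2 fold change of the 10 genes was 0.54, and that of all tested genes was -0.01. In each of the 8 genes all 6 persistent libraries lay above all 6 PAt and Arrested libraries, which was so for 24% of all genes. The 8 genes passed the adjusted p under each of 19 alternative settings.

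**Figure D1:**
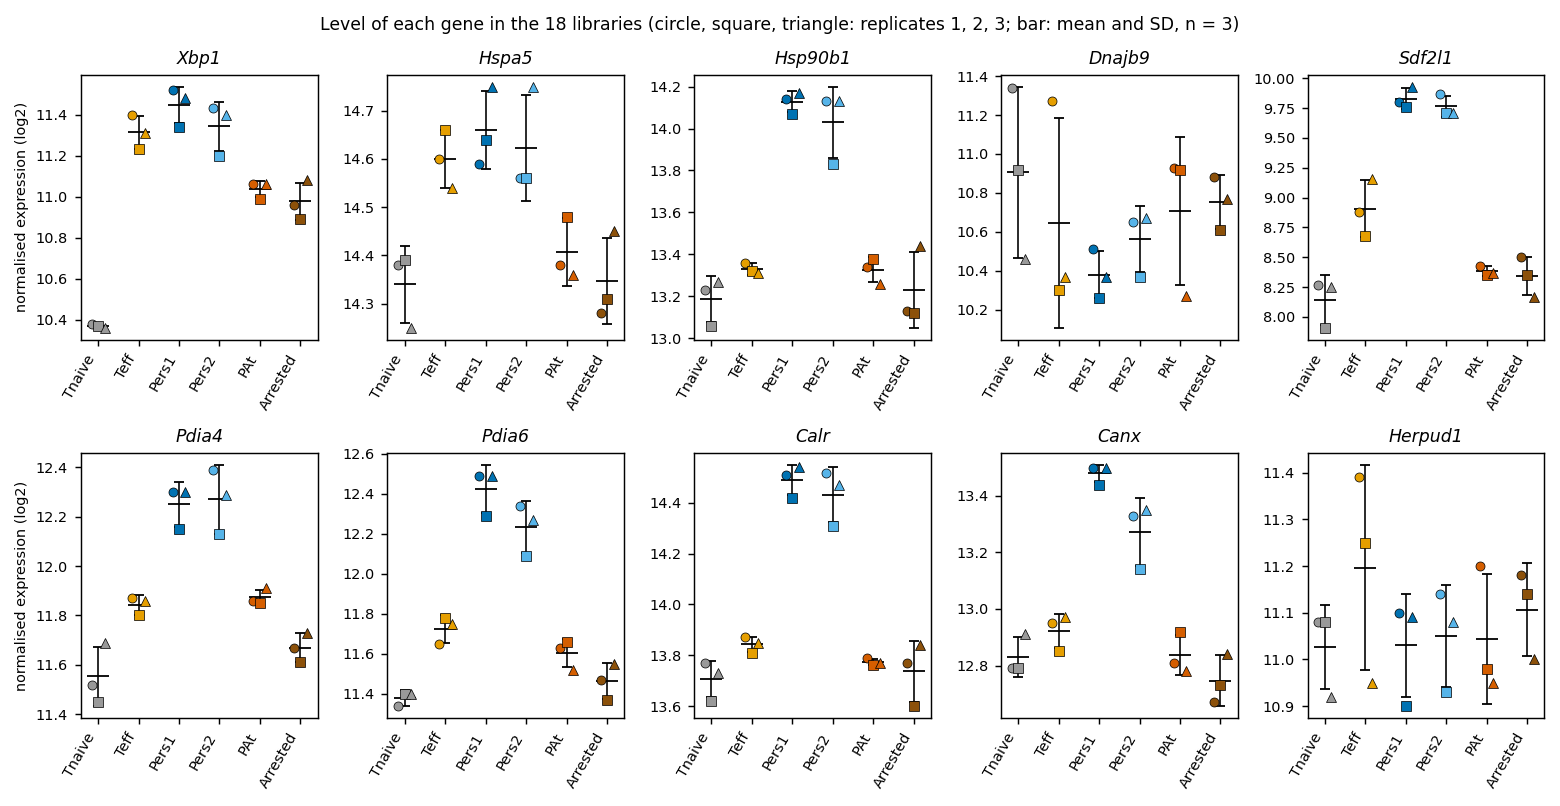
Normalised expression (log2) of the 10 genes in 18 libraries, with circles, squares and triangles for replicates 1, 2 and 3, and a bar for the mean and SD (n = 3). The vertical axes differ between panels and do not start at 0. Hsp90b1, Calr, Canx and Pdia6 stand apart in Pers1 and Pers2, Xbp1 and Hspa5 are about as high in Teff, and Dnajb9 and Herpud1 spread more within populations than between them.

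Values are given below as log2 of normalised expression in replicates 1, 2 and 3. They are relative to each library as a whole, so that in sorted bulk samples fewer cells of a kind and less RNA per cell cannot be told apart.

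Xbp1 is the transcription factor of the Ire1 branch (ENSMUSG00000020484, chromosome 11, 5520659-5525893, plus strand, GRCm38). It was 10.38, 10.37 and 10.36 in Tnaive and 11.40, 11.23 and 11.31 in Teff. The Pers1 libraries were at 11.52, 11.34 and 11.48 and those of Pers2 at 11.43, 11.20 and 11.40, above PAt (11.06, 10.99 and 11.06) and Arrested (10.96, 10.89 and 11.08). Tnaive lay below every other library, PAt and Arrested formed a middle level, and Teff, Pers1 and Pers2 overlapped at the top. Xbp1 was the gene of the 10 with the largest rise from Tnaive to Teff (log2 0.94, SE 0.07, adjusted p = 1.0e-10). It also rose from PAt and Arrested to the persistent cells (0.39, SE 0.05, adjusted p = 3.1e-07), and was higher in PAt and Arrested than in Tnaive (0.64, SE 0.06, adjusted p = 7.7e-09). The persistent cells and Teff differed by 0.08 (SE 0.06, adjusted p = 0.241), so that a difference between them was not resolved.

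Hspa5 encodes BiP (ENSMUSG00000026864, chromosome 2, 34771970-34777547, plus strand). Its libraries ran from 14.25 to 14.75, the narrowest range of the 10 apart from Herpud1. The values were 14.59, 14.64 and 14.75 in Pers1 and 14.56, 14.56 and 14.75 in Pers2. They were 14.38, 14.48 and 14.36 in PAt and 14.28, 14.31 and 14.45 in Arrested. The persistent libraries were all above these, by a margin of 0.26 on average (SE 0.04, adjusted p = 2.2e-05). Teff (14.60, 14.66 and 14.54) overlapped with the persistent cells, from which it differed by 0.04 (SE 0.05, adjusted p = 0.54), and it stood above Tnaive (14.38, 14.39 and 14.25) by 0.26 (SE 0.06, adjusted p = 0.00132). In both Xbp1 and Hspa5 the Teff libraries thus overlapped with those of Pers1 and Pers2.

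Hsp90b1 encodes Grp94, the Hsp90 of the ER, whose clients include integrins and Toll-like receptors (ENSMUSG00000020048, chromosome 10, 86690209-86705509, minus strand). It was 14.14, 14.07 and 14.17 in Pers1 and 14.13, 13.83 and 14.13 in Pers2. In PAt it was 13.34, 13.38 and 13.26, and in Arrested 13.13, 13.12 and 13.44. Teff, at 13.36, 13.32 and 13.31, lay with PAt and Arrested and not with the persistent cells, and Tnaive was 13.23, 13.06 and 13.27. The persistent cells were higher than PAt and Arrested by 0.80 (SE 0.06, adjusted p = 7.5e-11) and higher than Teff by 0.75 (SE 0.07, adjusted p = 8.6e-09). Teff and Tnaive differed by 0.14 (SE 0.08), which missed the threshold (adjusted p = 0.139) and passed it when only these 2 populations were fitted (adjusted p = 0.0365). Exons of 3 other annotated genes overlap those of Hsp90b1 over 632 bp in all, 1810014B01Rik on the opposite strand and Gm15344 and Gm25745 on the same strand, and whether strand was used in counting is not given in the sources used here.

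Sdf2l1 and Dnajb9 encode partners of BiP. Sdf2l1, a soluble protein found in complexes with BiP and its co-chaperones, had the lowest level per length of the 10 and the widest range, from 7.91 to 9.93 (ENSMUSG00000022769, chromosome 16, 17130138-17132383, minus strand). It was 9.80, 9.76 and 9.93 in Pers1 and 9.87, 9.71 and 9.71 in Pers2. In PAt it was 8.43, 8.35 and 8.37, in Arrested 8.50, 8.35 and 8.17, in Teff 8.88, 8.68 and 9.16, and in Tnaive 8.27, 7.91 and 8.25. The 18 libraries formed 3 levels without overlap, with Pers1 and Pers2 at the top, Teff in the middle and the other 3 populations at the bottom. The persistent cells exceeded PAt and Arrested by 1.43 (SE 0.08, adjusted p = 3.1e-12) and Teff by 0.89 (SE 0.10, adjusted p = 2.2e-07), and Teff exceeded Tnaive by 0.76 (SE 0.12, adjusted p = 1.3e-05).

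Dnajb9, or ERdj4, is a J-domain co-chaperone that brings BiP to Ire1 and to misfolded proteins (ENSMUSG00000014905, chromosome 12, 44205559-44210326, minus strand). It is widely used as a target gene of Xbp1. Here it followed neither Xbp1 nor the chaperones. The Pers1 libraries were at 10.51, 10.26 and 10.37 and those of Pers2 at 10.65, 10.37 and 10.67, beside 10.93, 10.92 and 10.27 for PAt and 10.88, 10.61 and 10.77 for Arrested. Tnaive (11.34, 10.92 and 10.46) and Teff (11.27, 10.30 and 10.37) each spread over more than the largest difference between population means. The persistent cells were at -0.26 relative to PAt and Arrested (SE 0.15, adjusted p = 0.136). With the replicate number as a block the same difference had an adjusted p of 0.044, with only the populations compared in the fit 0.0275, and without PAt replicate 3 it was -0.37 (adjusted p = 0.0347). None of its 5 pairs of neighbouring populations passed the test.

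Pdia4 and Pdia6 encode protein disulfide isomerases, which form and rearrange disulfide bonds in proteins held by BiP or Grp94. Pdia6 (ENSMUSG00000020571, chromosome 12, 17266545-17284770, plus strand) was 12.49, 12.29 and 12.49 in Pers1 and 12.34, 12.09 and 12.27 in Pers2. It was 11.63, 11.66 and 11.52 in PAt, 11.47, 11.37 and 11.55 in Arrested, 11.65, 11.78 and 11.75 in Teff and 11.34, 11.40 and 11.40 in Tnaive. Each persistent library was above every library of the other 4 populations. The rise was 0.80 against PAt and Arrested (SE 0.05, adjusted p = 6.1e-12), 0.60 against Teff (SE 0.06, adjusted p = 2.2e-08), and 0.34 from Tnaive to Teff (SE 0.07, adjusted p = 2.2e-04). Exons of Atp6v1c2 on the opposite strand overlap 50 bp of Pdia6.

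Pdia4 (ENSMUSG00000025823, chromosome 6, 47796141-47813430, minus strand) was 12.30, 12.15 and 12.30 in Pers1 and 12.39, 12.13 and 12.29 in Pers2. It was 11.86, 11.85 and 11.91 in PAt and 11.67, 11.61 and 11.73 in Arrested. Teff (11.87, 11.80 and 11.86) overlapped with PAt, and Tnaive (11.52, 11.45 and 11.69) with Arrested. The persistent cells were higher than PAt and Arrested by 0.49 (SE 0.05, adjusted p = 8.8e-09) and than Teff by 0.42 (SE 0.06, adjusted p = 3.0e-06). Teff were higher than Tnaive by 0.29 (SE 0.07, adjusted p = 8.9e-04). Pdia4 was the only gene of the 10 with an unadjusted p under 0.05 between Arrested and PAt. That difference of -0.20 (SE 0.07) had an adjusted p of 0.0898, and of 0.0163 with the replicate number as a block.

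Calr and Canx encode calreticulin and calnexin, the soluble and the membrane-bound lectin chaperones that bind glycoproteins during their folding. Calr (ENSMUSG00000003814, chromosome 8, 84841850-84846934, minus strand) was 14.51, 14.42 and 14.54 in Pers1 and 14.52, 14.31 and 14.47 in Pers2. It was 13.79, 13.76 and 13.77 in PAt, 13.77, 13.60 and 13.84 in Arrested, 13.87, 13.81 and 13.85 in Teff and 13.77, 13.62 and 13.73 in Tnaive. The persistent libraries stood apart. Of the other 4 populations, Arrested overlapped with Teff, PAt and Tnaive, while the Teff libraries lay above those of PAt and Tnaive. Calr was higher in the persistent cells by 0.71 against PAt and Arrested (SE 0.04, adjusted p = 4.6e-12) and by 0.62 against Teff (SE 0.05, adjusted p = 1.8e-09). The difference of 0.14 between Teff and Tnaive (SE 0.06, adjusted p = 0.0587) passed with the replicate number as a block (adjusted p = 0.0104), with quantile normalisation (0.15, adjusted p = 0.0356), with only the populations compared in the fit (adjusted p = 0.0207) and without Tnaive replicate 1 (0.17, adjusted p = 0.0434).

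Canx (ENSMUSG00000020368, chromosome 11, 50293961-50325673, minus strand) also stood apart in the persistent cells, at a smaller size. It was 13.50, 13.44 and 13.50 in Pers1 and 13.33, 13.14 and 13.35 in Pers2, against 12.81, 12.92 and 12.78 in PAt and 12.67, 12.73 and 12.84 in Arrested. Teff was 12.95, 12.85 and 12.97, and Tnaive 12.79, 12.79 and 12.91. The rise was 0.59 against PAt and Arrested (SE 0.04, adjusted p = 1.0e-10) and 0.46 against Teff (SE 0.05, adjusted p = 2.0e-07), while Teff and Tnaive differed by 0.09 (SE 0.06, adjusted p = 0.211). Canx was the 1 gene of the 10 that differed between the persistent populations, with Pers2 at -0.21 relative to Pers1 (SE 0.06, adjusted p = 0.0334). That call was lost when any of the 3 Pers1 libraries or Pers2 replicate 2 was left out, with values of -0.14 to -0.22. It was also lost with quantile normalisation (-0.19, adjusted p = 0.054) and with no variance trend in limma (adjusted p = 0.0733).

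Herpud1 encodes a membrane protein of ER-associated degradation that is induced strongly by ER stress (ENSMUSG00000031770, chromosome 8, 94386438-94395377, plus strand). Its libraries spanned 10.90 to 11.39, and the population means lay between 11.02 in Tnaive and 11.20 in Teff. The persistent cells and PAt and Arrested differed by -0.04 (SE 0.07, adjusted p = 0.644). The difference between the persistent cells and Teff was -0.16 (SE 0.08, adjusted p = 0.109), and it had an adjusted p of 0.0422 with the replicate number as a block. Of the 3 Teff libraries, at 11.39, 11.25 and 10.95, the third was lowest, and without it the difference was -0.28 (adjusted p = 0.00599). The difference also passed with median centring (-0.22, adjusted p = 0.0299) and quantile normalisation (-0.20, adjusted p = 0.0388). No pair of neighbouring populations passed the test.

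**Figure D2:**
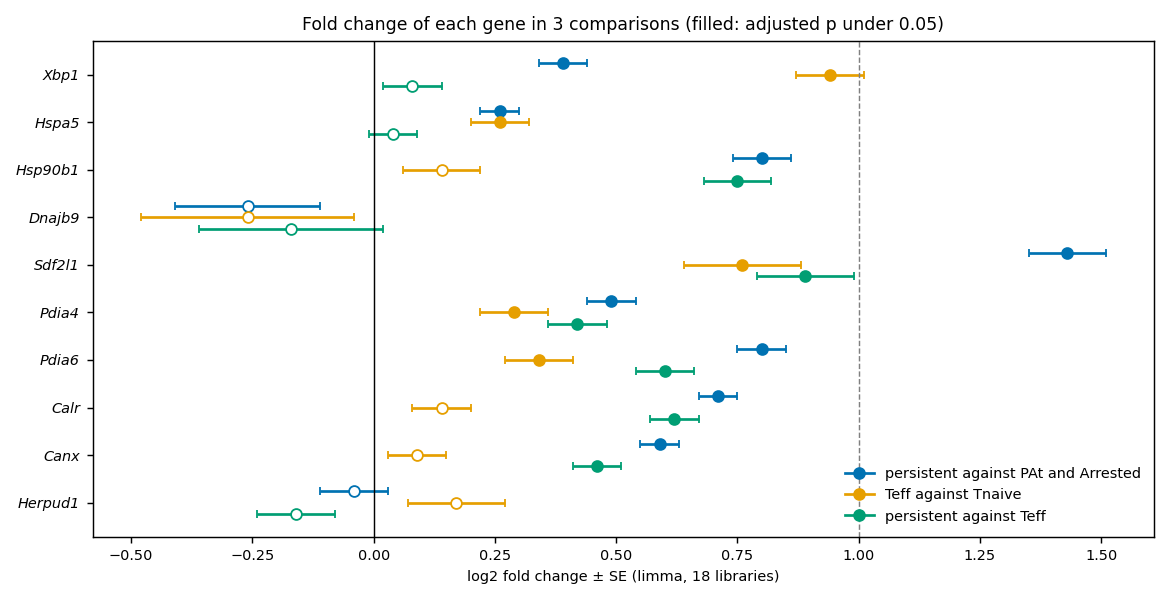
Log2 fold change with its standard error for the 10 genes in 3 comparisons from limma fits of 18 libraries, filled where the adjusted p is under 0.05, with a dashed line at the study's threshold of 1. Xbp1 is furthest right for Teff against Tnaive (0.94), whereas Hsp90b1, Calr and Canx are filled only for the comparisons of persistent cells.

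Between the Foxp3-negative populations, 5 of the 10 genes were higher in Teff than in Tnaive (Xbp1, Sdf2l1, Pdia6, Pdia4 and Hspa5), against 31.3% of all tested genes. The members' median was 0.22, beside 0.00 for all genes. Between the persistent cells and Teff, 6 of the 10 were higher in the persistent cells, against 29.8% of all genes, namely Sdf2l1, Hsp90b1, Calr, Pdia6, Canx and Pdia4. The other 4, Xbp1, Hspa5, Dnajb9 and Herpud1, did not pass.

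PAt and Arrested cells, the Foxp3 expressors with little or no blue signal, were also compared with both Foxp3-negative populations. Against Tnaive, Xbp1 (0.64), Pdia4 (0.22, adjusted p = 0.00403) and Pdia6 (0.15, adjusted p = 0.0427) were higher in PAt and Arrested, 3 of 10 against 26.9% of all genes. The Pdia6 call was ended by each of 7 left-out libraries (all 3 of Tnaive, PAt replicates 1 and 2, Arrested replicates 1 and 3), with values of 0.13 to 0.16, and was 0.07 (adjusted p = 0.316) after centring each library on its median. That call was also lost with quantile normalisation (adjusted p = 0.0504) and with no variance trend (adjusted p = 0.0711). Against Teff, 5 of the 10 were lower in PAt and Arrested, against 27.9% of all genes. They were Sdf2l1 (-0.54, adjusted p = 1.5e-04), Xbp1 (-0.31, adjusted p = 1.5e-04), Hspa5 (-0.22, adjusted p = 0.00181), Pdia6 (-0.19, adjusted p = 0.00956) and Canx (-0.13, adjusted p = 0.0423). The Pdia6 call was lost without Teff replicate 2 (-0.17, adjusted p = 0.0571), and that of Canx without any of 6 libraries (Teff replicates 1 and 3, PAt replicates 1 and 3, Arrested replicates 1 and 2), at -0.11 to -0.13. The Canx call was also lost with median centring (adjusted p = 0.0507), with no variance trend (adjusted p = 0.0776) and with only the populations compared in the fit (adjusted p = 0.0579). These comparisons share populations with the ones above and are no separate evidence.

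Within the persistent cells and within the others there was little to separate the genes. In Pers2 against Pers1, 1 of 10 was lower (Canx), against 4.56% of all genes. There 2 of 10 had an unadjusted p under 0.05, against 3160 of all 13190 genes. In Arrested against PAt, 0 of 10 passed the adjusted p in limma, against 5.04% of all genes in either direction. An unadjusted p under 0.05 was found in 1 of 10, against 2384 of all 13190 genes.

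The design allows the shift within Foxp3 expressors (persistent against PAt and Arrested) to be set against the shift within Foxp3-negative cells (Teff against Tnaive) in the same fit. The first was larger for 6 of the 10 genes, against 23.2% of all genes, and smaller for Xbp1, against 25.5% of all genes. The difference of the shifts was 0.67 for Sdf2l1 (SE 0.15, adjusted p = 6.7e-04), 0.66 for Hsp90b1 (SE 0.10, adjusted p = 1.2e-05), 0.57 for Calr (SE 0.07, adjusted p = 1.7e-06), 0.50 for Canx (SE 0.07, adjusted p = 1.1e-05) and 0.45 for Pdia6 (SE 0.08, adjusted p = 1.5e-04). It was 0.20 for Pdia4 (SE 0.08, adjusted p = 0.0488), a call that each of 13 left-out libraries ended, with values of 0.13 to 0.22. It held only without Tnaive replicate 2, Pers1 replicate 2, Pers2 replicate 2, PAt replicate 3 or Arrested replicate 3. For Xbp1 it was -0.56 (SE 0.08, adjusted p = 1.0e-05). For Hspa5 both shifts were 0.26, and their difference was 0.00 (SE 0.08, adjusted p = 0.982).

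**Figure D3:**
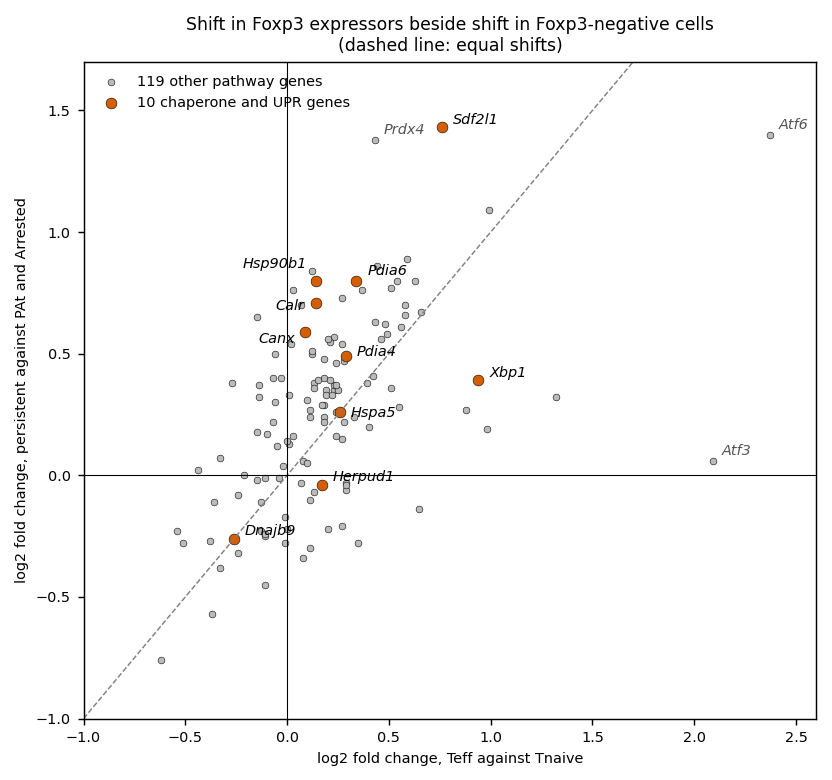
Each point is a gene, with the log2 fold change of Teff against Tnaive on the horizontal and of persistent against PAt and Arrested on the vertical axis, for the 10 genes (orange) and 119 other genes of the secretory pathway (grey). Hsp90b1, Calr, Canx and Pdia6 lie above the line of equal shifts and Xbp1 below it, as does Atf6.

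Other cell types and the cell cycle moved with these contrasts. The 5 dendritic cell markers tested (Itgax, Flt3, Zbtb46, Siglech and Xcr1) were all higher in Teff than in Tnaive, with summed levels of 11.20 to 11.74 in Teff and 6.71 to 7.27 in the other 5 populations. Siglech, a marker of plasmacytoid dendritic cells, averaged 10.62 in Teff and 3.85 in Tnaive. Markers of macrophages (3 of 4), B cells (8 of 8), CD8 T cells (2 of 2), NK cells (2 of 2) and plasma cells (6 of 7) were also higher in Teff. Their part in the Teff values of the 10 genes, the Xbp1 shift included, was not tested. Between the persistent cells and PAt and Arrested the B-cell markers went the other way, with 8 of 8 lower in the persistent cells, as were 2 of 2 CD8 markers (summed level 9.65 to 10.18 in the persistent cells and 10.41 to 10.70 in the others). The summed B-cell level was 10.87 to 11.19 in Pers1 and Pers2 and 11.72 to 12.30 in PAt and Arrested. Of 7 plasma cell markers 1 was higher, Txndc5 (0.89), which also belongs to the list of disulfide isomerases and oxidative folding enzymes below. The 2 lower ones were Jchain (-0.45) and Mzb1 (-0.50), and in each the libraries of the compared groups overlapped. Jchain averaged 3.96 in Pers2 and in Pers1, against 4.32 in Arrested and 4.51 in PAt (SD 0.66). Mzb1 averaged 4.81 in Pers2 and 4.98 in Pers1, against 5.28 in Arrested and 5.50 in PAt. Sdc1 (0.10), Derl3 (0.19), Fkbp11 (0.00) and Pou2af1 (-0.06) did not pass. The summed plasma cell level was higher in the persistent cells (11.76 to 12.23) than in PAt and Arrested (11.24 to 11.35). Txndc5 had the highest mean of the 7 markers in each of these populations, so that the sum mostly follows this folding gene. Txndc5 alone averaged 11.56 in Pers2 and 11.90 in Pers1, against 10.82 in Arrested and 10.86 in PAt. Of 4 macrophage markers 1 was higher, Itgam, by 2.05 (adjusted p = 2.0e-16), and the list's summed level was 8.64 to 9.59 in the persistent cells and 7.93 to 8.66 in PAt and Arrested. Of the 2 NK markers Klrb1c was higher (0.61, adjusted p = 7.8e-07), with the pair at 6.31 to 6.64 and 5.52 to 6.37. Of the 5 dendritic cell markers Xcr1 was higher (0.44, adjusted p = 0.00376), and their summed level was 6.85 to 7.27 in the persistent cells and 6.71 to 7.27 in PAt and Arrested. The part of these cells in the values of the 10 genes was not tested.

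All 4 cell cycle markers were higher in the persistent cells than in PAt and Arrested, by 2.76 to 3.10. Their summed level was 15.24 to 15.52 in Pers1 and Pers2, 13.47 to 13.53 in Teff, 12.28 to 12.70 in PAt and Arrested and 9.99 to 10.17 in Tnaive. The same markers rose by 2.84 to 4.14 from Tnaive to Teff. There 5 of the 10 genes were higher, Xbp1 (0.94), Sdf2l1 (0.76), Pdia6 (0.34), Pdia4 (0.29) and Hspa5 (0.26). Herpud1 (0.17), Hsp90b1 (0.14), Calr (0.14), Canx (0.09) and Dnajb9 (-0.26) did not pass in the reported fit. All of these but Canx passed under some alternatives. What part proliferation has in the chaperone levels was not tested. T-cell markers were high in all 18 libraries (summed level 17.09 to 17.52), and Foxp3 averaged 14.42 to 14.82 in the 4 populations of Foxp3 expressors, 11.34 in Tnaive and 10.54 in Teff. The Foxp3 transcript was higher in the persistent cells than in PAt and Arrested by only 0.24 (SE 0.05, adjusted p = 1.4e-04, limma), and their libraries overlapped.

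The machinery around the 10 genes was described by lists of 119 tested genes, the 10 left out. In the persistent cells 78 of the 119 were higher than in PAt and Arrested, 21 were lower and 20 did not pass, beside 35.9% higher and 35.1% lower of all tested genes, with a median of 0.28. The same shares are the background of each list below. Under the study's rule 3 of 119 were called, against 4.74% of all genes higher, all 3 being higher, the stress sensor Atf6 (1.40, adjusted p = 2.6e-14), the ER peroxiredoxin Prdx4 (1.38, adjusted p = 9.6e-14), and the signal peptidase subunit Sec11c (1.09, adjusted p = 3.8e-14).

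**Figure D4:**
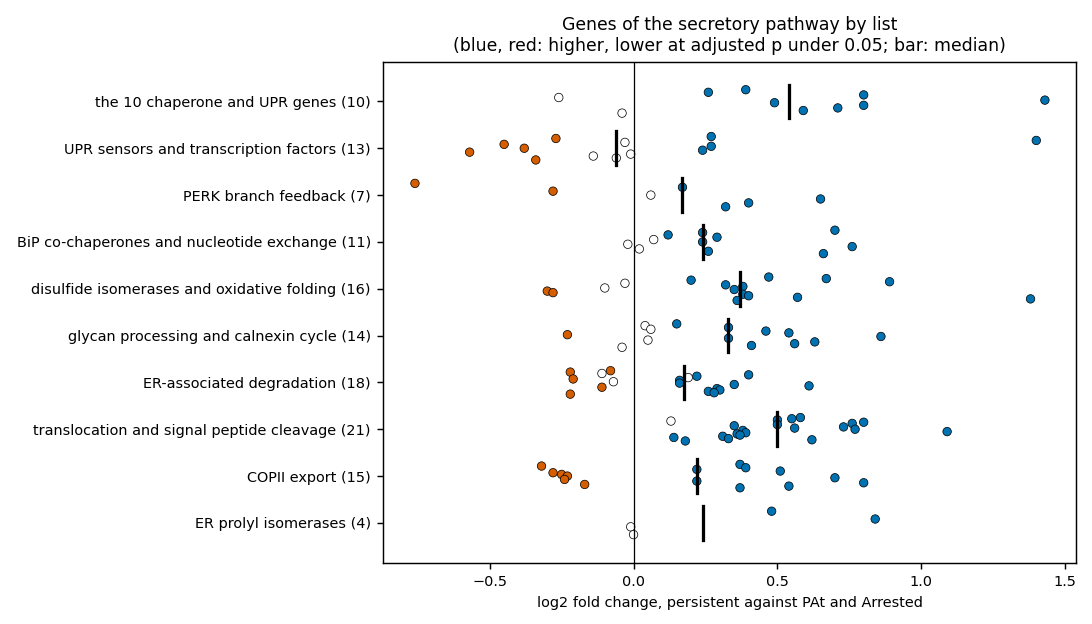
Log2 fold change of persistent cells against PAt and Arrested for the 10 genes and for 9 lists of the secretory pathway, 1 point per gene, blue where higher and red where lower at an adjusted p under 0.05, open otherwise, with a bar at the median. Translocation genes are almost all blue, with a median of 0.50, while the sensors and transcription factors of the UPR lie on both sides of 0.

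Translocation and signal peptide cleavage, the route into the ER, moved most evenly, with 20 of 21 genes higher and a median of 0.50. Sec61a1, the pore of the translocon, was higher by 0.58 (adjusted p = 3.4e-11). Among the co-chaperones and exchange factors of BiP, 8 of 11 were higher and none was lower. They included Manf, a secreted stress factor that binds BiP (0.76, adjusted p = 5.5e-10, with a replicate effect at adjusted p = 0.0464), the J-domain protein Dnajb11 (0.70, adjusted p = 2.4e-11), and the exchange factor Hyou1 (0.24, adjusted p = 9.6e-06). The value of Hspa5 itself was 0.26. Of the disulfide isomerases and oxidative folding enzymes 12 of 16 were higher and 2 lower, with Pdia3, the partner of calnexin and calreticulin, at 0.67 (adjusted p = 1.6e-10), P4hb at 0.47 (adjusted p = 1.2e-11) and Creld2, a known stress target, at 0.38 (adjusted p = 8.7e-05).

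Glycan processing had 9 of 14 genes higher and 1 lower, and the 4 ER prolyl isomerases had 2 higher and none lower. ER-associated degradation was more mixed, with 10 of 18 higher and 5 lower. Edem1, which draws misfolded glycoproteins out of the calnexin cycle and is a target of Xbp1, was lower by a small margin (-0.08, adjusted p = 0.0397), and Derl3 was at 0.19 (adjusted p = 0.0841). COPII export, the route from the ER to the Golgi, had 9 of 15 higher and 6 lower. Of the 9 lists, translocation had the median nearest to that of the 10 genes (0.50 and 0.54).

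The sensors and transcription factors of the UPR lay on both sides of 0, in shares near those of all genes (35.9% and 35.1%). In the persistent cells 4 of 13 were higher, Atf6, Ern1 encoding Ire1 (0.27, adjusted p = 0.00357), Mbtps2 (0.27, adjusted p = 5.6e-04) and Atf5 (0.24, adjusted p = 0.0305). The 5 lower ones were Ddit3 (-0.57, adjusted p = 5.8e-08), Mbtps1 (-0.45, adjusted p = 1.3e-10), Atf4 (-0.38, adjusted p = 5.3e-07), Bhlha15 (-0.34, adjusted p = 9.2e-04) and Eif2ak3 encoding Perk (-0.27, adjusted p = 2.9e-04). Mbtps1 and Mbtps2 are the proteases that release Atf6. Atf6b (-0.03), Creb3 (-0.01), Nfe2l1 (-0.06) and Creb3l2 (-0.14) did not pass. Of the 7 tested genes of Perk branch feedback, 4 were higher and 2 lower, with a median of 0.17. They ran from Ppp1r15a, a phosphatase subunit of the feedback loop, at -0.76 (adjusted p = 4.4e-09) to Eif2s1, the translation factor that Perk phosphorylates, at 0.65 (adjusted p = 1.0e-08), both named after their values were seen. Ppp1r15a also differed between replicate numbers (adjusted p = 3.9e-04, F test in limma).

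Atf6 had its highest levels in the same 3 populations as Xbp1. Its population means were 9.15 in Tnaive, 10.14 in PAt, 10.11 in Arrested, 11.52 in Teff, 11.60 in Pers1 and 11.46 in Pers2. Like Xbp1, it had a smaller shift within Foxp3 expressors than within Foxp3-negative cells (difference of shifts -0.96, adjusted p = 1.9e-07), and the persistent cells and Teff differed by 0.01 (SE 0.08, adjusted p = 0.919). Against Teff, 0 of the 13 sensors and factors were higher in the persistent cells in limma and 8 were lower, against 29.8% and 28.9% of all genes. An unadjusted p under 0.05 was found in 8 of the 13, and in 8228 of all 13190 genes. A difference between this list and the 10 genes was not tested.

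Of the 10 genes, 5 of 5 with an exact ERSE and 3 of 5 without one were higher in the persistent cells, beside 35.9% of all tested genes. With an ERSE the log2 fold changes ran from 0.26 (Hspa5) to 0.80 (Hsp90b1 and Pdia6), and Sdf2l1, with the largest change, has neither spelling in its window. Herpud1, with an ERSE-II, did not pass the test (-0.04), and Dnajb11, the only other pathway gene with an ERSE-II, was higher (0.70). An ERSE was found in 4 other pathway genes. Of these Creld2 (0.38) and Dnajc3 (0.12, adjusted p = 0.0114) were higher, Syvn1 was lower (-0.21, adjusted p = 4.7e-04), and Derl3 did not pass. Of all 19 tested genes with an ERSE 7 were higher (36.8%), near the 35.9% of all tested genes. These 7 were among the 9 that belong to the 10 genes or the lists, which were chosen with earlier results known. The other 10 had a median of -0.15, and 3 of them were lower. Whether an ERSE goes with the change was not tested.

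Levels were compared between the genes after division by exon length. On this scale, log2 per kilobase averaged over the 18 libraries, Calr (12.47), Hspa5 (12.42) and Hsp90b1 (11.53) were the most abundant, followed by Canx (10.78) and Pdia4 (10.65). Pdia6 (9.90), Herpud1 (9.85), Xbp1 (9.38), Dnajb9 (9.31) and Sdf2l1 (8.75) were lower. The 3 most abundant chaperones are the classical calcium-binding proteins of the ER lumen. The length is that of all annotated exons of a gene together, which need not be the transcript these cells make.

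Across the 18 libraries the chaperones Hsp90b1 and Calr had the most similar profiles of the 10 (Pearson r 0.99), and Hsp90b1 was also close to Pdia6 and Canx (both 0.97). Xbp1 was less close to Hsp90b1 (0.70) and to Canx (0.66), and the lowest r of all pairs was that of Dnajb9 with Pdia6 (-0.46). These are descriptions over 6 population means with 3 libraries each, in which populations set most of the spread. Outside the 10 genes, the profiles most like Xbp1 were those of Grhl1 and Bcl2a1b (both r 0.980), Gabarap, Hspa4l and Alcam (each 0.979). Those most like Hspa5 were Brox (0.925), Dcun1d5 and Rap1a (both 0.921), Tmed10 and Micu2 (both 0.918). Those most like the mean of the 10 genes were Nono and Slbp (both 0.979), Ndufa4 (0.978), C330027C09Rik (0.977) and Ybx1 (0.975).

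Dnajb9 differed between replicate numbers. Its mean over the 6 populations was 10.93 in replicate 1, 10.56 in replicate 2 and 10.49 in replicate 3 (adjusted p = 0.048, F test of the replicate number in limma). Replicate 1 was above the mean of the other two in 6 of 6 populations, by 0.13 to 0.93. Such an effect was found in 2 of the 10 genes, the other being Calr (adjusted p = 0.0445), in which replicate 2 averaged 13.92 and replicates 1 and 3 14.04 and 14.03. Over all tested genes 3.84% had one, and of the 119 pathway genes 2 did. In Herpud1 replicate 1 was also above in 6 of 6 populations, by 0.08 to 0.29, but its effect did not pass (adjusted p = 0.105). Within each replicate number taken alone, Calr and the 7 other genes higher in the persistent cells kept a positive difference from PAt and Arrested.

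**Figure D5:**
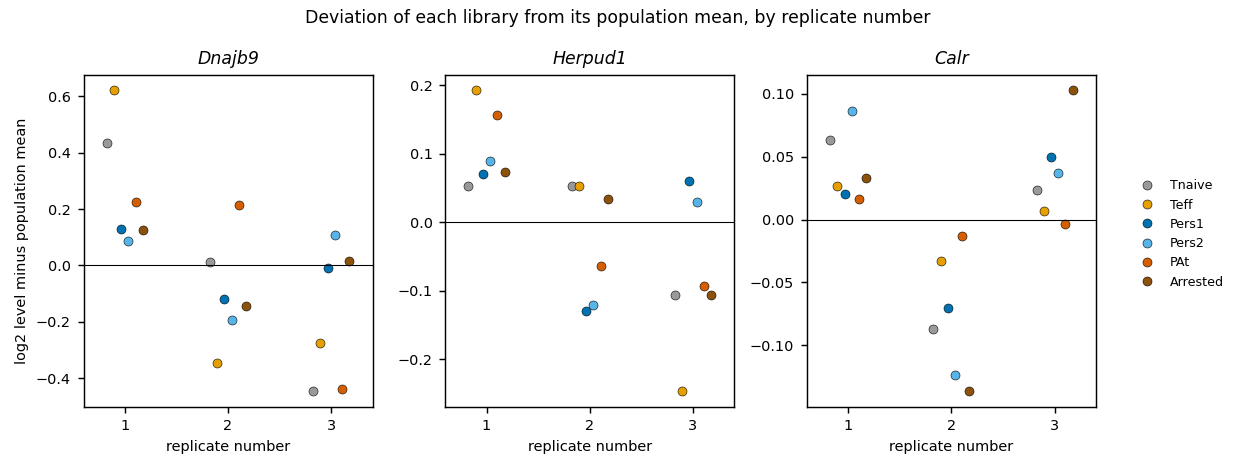
Deviation of each library from the mean of its population (log2) by replicate number, in Dnajb9, Herpud1 and Calr, with 1 colour per population. In replicate 1 all 6 populations lie above 0 in Dnajb9 and Herpud1, and in replicate 2 all 6 lie below 0 in Calr.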

How the data were processed

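RNA-seq had been performed on 18 libraries, 3 from each of 6 sorted T-cell populations. Stranded mRNA libraries were sequenced as paired reads of 100 bp, and the processing notes of the authors name CASAVA 1.8.2, FastQC 0.11.2, TopHat2 2.0.9 on mm10 and DESeq2. What the authors deposited is normalised expression on a log2 scale, in the manner of the regularised logarithm that DESeq2 offers, which shrinks fold changes of weakly expressed genes. Without read counts, sequencing depth is unknown, and precision rests on the 3 replicates of each population. A strand setting for counting is not given in the sources used here.

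The deposited values were used without a pseudocount. Genes averaging at least 3 on this scale were tested (13190 of 15402), in a single limma 3.58.1 model (R 4.3.3) of the 6 populations with a variance trend on mean expression and 12 residual degrees of freedom. P-values were adjusted by Benjamini-Hochberg over all tested genes, and all adjusted p-values come from limma. The study's thresholds are an adjusted p under 0.05 and a log2 fold change over 1, and counts under the adjusted p alone are given beside them. In a test on simulated data of the comparison of persistent cells with PAt and Arrested (13190 genes), 200 of 200 genes changed by a log2 value of 2 were recovered with 0 false calls, and smaller changes were not simulated. The members, lists and named genes were chosen with earlier results of these data known. Named genes are the 10, all sensors and factors of the UPR, called genes at the ends of each list (2 highest, 1 lowest), 10 further genes of known role, and the 5 profiles most like Xbp1, Hspa5 and the members' mean; others are said to be chosen later or were named for an ERSE.

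Same-numbered libraries were taken to share their mice, which the sources used here do not state outright. Their deviations from the population means correlated over genes with a median r of 0.166 in 45 pairs (-0.206 to 0.436), against -0.064 in 90 pairs with different numbers. The replicate number was an alternative block. Other alternatives were median centring, quantile normalisation, no filter, a minimum of 5, no variance trend, a fit of only the populations compared, no fold threshold and leaving out each library. The F test of the replicate number and the within-replicate differences were added after seeing the data. Gene positions are from GENCODE vM21 (GRCm38) and promoters from RefSeq (GRCm38.p6), which matched 9938 tested genes. In 22 rows the symbol is a date, and these genes are not named. Figures were drawn with matplotlib 3.10.9.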

Additional observations from a re-analysis of the deposited data

Results flagged for a closer look

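For 7 of the 10 genes the shift from PAt and Arrested to persistent cells differed from the shift from Tnaive to Teff, by a test of the difference itself in limma. Of all 13190 tested genes, the difference was above 0 in 23.2% and below 0 in 25.5% at an adjusted p under 0.05. The difference of the log2 fold changes was 0.67 for Sdf2l1, 0.66 for Hsp90b1, 0.57 for Calr, 0.50 for Canx, 0.45 for Pdia6 and 0.20 for Pdia4, all with the larger shift among Foxp3 expressors. It was -0.56 for Xbp1, with the larger shift among Foxp3-negative cells. Under the 24 alternative settings, left-out libraries included, Sdf2l1, Hsp90b1, Calr, Canx, Pdia6 and Xbp1 stayed past the threshold each time, and Pdia4 did not in 15 of them. Teff, which enters each of these values, is also the population with the highest dendritic cell markers (summed level 11.20 to 11.74), and their part was not tested.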

How the results depend on the processing

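Of 1300 values of single genes under the alternatives, 1220 kept their direction and their side of the threshold, 41 lost the adjusted p, 21 gained it and 18 changed sign. No loss or change of sign fell on the comparison of persistent cells with PAt and Arrested. Each change of sign was in a difference that had not passed. With median centring Hspa5 was -0.02 in persistent cells against Teff, and Hspa5 (-0.04), Calr (-0.03) and Herpud1 (-0.03) changed sign in PAt and Arrested against Tnaive. With quantile normalisation Hspa5 in the latter comparison was 0.15 and passed (adjusted p = 0.0382), against 0.04 as reported, so that its direction depends on the scaling. The cause was not tested. When single libraries were left out, Dnajb9 ran from -0.34 to 0.14 in persistent cells against Teff, from -0.40 to 0.05 in PAt and Arrested against Tnaive, from -0.08 to 0.40 in PAt and Arrested against Teff and from -0.17 to 0.16 in Arrested against PAt. In PAt and Arrested against Tnaive Hspa5 ran from -0.01 to 0.06. In Pers2 against Pers1 Hspa5 ran from -0.10 to 0.01, Pdia4 from -0.04 to 0.09 and Herpud1 from -0.05 to 0.08, and in Arrested against PAt Sdf2l1 ran from -0.13 to 0.04 and Calr from -0.09 to 0.03.

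Without the fold threshold the calls among the 10 genes went from 1 to 8 in persistent cells against PAt and Arrested and from 0 to 5 in Teff against Tnaive, 6 in persistent cells against Teff, 3 in PAt and Arrested against Tnaive, 5 in PAt and Arrested against Teff, 1 in Pers2 against Pers1 and 7 in the difference of shifts. Among the 119 pathway genes they became 99, 76, 77, 56, 71 and 13 in the first 6 of these comparisons, 1 in Arrested against PAt and 64 in the difference of shifts. The pathway genes that did not pass were 20, 43, 42, 63, 48, 106, 118 and 55 of 119, in the same order. Of all 13190 tested genes, 3833, 5405, 5451, 6506, 6240, 11795, 12525 and 6770 did not pass. Other settings moved only small counts of pathway genes under the study's rule. With a minimum of 5, which tests fewer genes, calls in persistent cells against Teff fell from 2 to 1 and those in the difference of shifts from 1 to 0, and quantile normalisation gave 1 in PAt and Arrested against Tnaive and 2 in the difference of shifts. Leaving out single libraries gave 3 to 5 pathway calls in Teff against Tnaive (5 without Tnaive replicate 1 or Teff replicate 2), 1 to 3 in the difference of shifts (3 without Tnaive replicate 1, Teff replicate 2 or Arrested replicate 2), and 0 to 1 of the 10 genes in persistent cells against Teff (1 without Teff replicate 3).

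With the replicate number as a block, Dnajb9 in persistent cells against PAt and Arrested (-0.26), Calr in Teff against Tnaive (0.14), Herpud1 in persistent cells against Teff (-0.16) and Pdia4 in Arrested against PAt (-0.20) passed the adjusted p, and the block changed no other call of the 10 genes. With single libraries left out, calls were also gained for Dnajb9 in Teff against Tnaive (-0.57, adjusted p = 0.0172, without Teff replicate 1), Herpud1 there (0.30, adjusted p = 0.00889, without Teff replicate 3), Calr there (0.17, adjusted p = 0.0434, without Tnaive replicate 1), Sdf2l1 in PAt and Arrested against Tnaive (0.26, adjusted p = 0.0394, without Arrested replicate 3) and Pdia6 in Pers2 against Pers1 (-0.26, adjusted p = 0.0342, without Pers1 replicate 2). In the difference of shifts Herpud1 was -0.33 without Teff replicate 3 (adjusted p = 0.0151). Depth is unknown, so differences of low genes could not be weighed against counting error.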
